A study of Mus musculus with 35 samples.

Results

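This comparison asked what acetate added to an antibiotic treatment does to gene expression in the medial prefrontal cortex (mPFC) of wild-type (WT) mice. It set 4 libraries of WT mice given antibiotics with acetate (WT_abx_and_acetate) against 4 of WT mice given antibiotics alone (WT_abx), chosen by their labels from the 35 libraries of the series. Total RNA from punches of mPFC was sequenced in bulk, and the labels call the cell type bulk tissue. The other groups used here are WT mice on water (WT_control, n = 6), WT mice on acetate alone (WT_acetate, n = 5), and mice deficient in Shank3 (KO) given antibiotics (KO_abx, n = 3) or antibiotics with acetate (KO_abx_and_acetate, n = 4). KO mice on water (KO_control, n = 4) and on acetate alone (KO_acetate, n = 5) also entered the fit and the KO ranges of the label check. The sources used here do not name the antibiotics, doses, durations, ages or the form of the Shank3 allele. The labels number no replicates and do not say that each library came from its own animal, so a p-value here reflects only how these samples spread. Libraries are numbered within a group in the order of the sample records.

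Acetate is the most abundant of the short-chain fatty acids that gut bacteria make by fermenting fibre, and antibiotics deplete those bacteria. It crosses the blood-brain barrier through monocarboxylate transporters. In cells, acetyl-CoA synthetases join it to coenzyme A, and the acetyl-CoA so made feeds the citric acid cycle, the synthesis of sterols and fatty acids, and the acetylation of histones. The genes of these routes, of transcription that responds to neuronal activity and stress hormones, of synapses and of cell types were therefore described as lists, beside a test of every gene.

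Values are log2 CPM, the log2 of reads scaled to library size, as the authors deposited them, for 14870 genes. A log2 fold is the mean of WT_abx_and_acetate minus that of WT_abx after a term for the labelled sex, given with its standard error (SE), and a group mean comes with its standard deviation (SD). The test was limma's moderated test over all 35 libraries, 2-sided, with Benjamini-Hochberg adjustment across every gene tested and a threshold of 0.05. Depth recovered from the values was 12.8 M (mega) reads in WT_abx_and_acetate 4, the shallowest, and 25.04 M in the deepest of the 8 libraries (median 22.9 M), with RNA integrity numbers from 8.9 to 9.3. The labels give 2 males and 2 females in WT_abx, and 3 males and 1 female in WT_abx_and_acetate.

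Some libraries went against their labels. Shank3, the gene in which the KO mice are deficient, was 8.68, 8.30, 8.27 and 7.48 log2 CPM in WT_abx 1 to 4, and 8.22, 8.62, 8.37 and 8.38 in WT_abx_and_acetate 1 to 4. The lowest, the library labelled WT_abx 4, lay below the 8.22 to 8.85 of 16 WT libraries and above the 4.07 to 5.11 of the 16 KO libraries. Acr, the neighbouring gene on the chromosome, was 4.56 in that library against -0.46 to 0.83 in the same 16 WT libraries and 5.04 to 5.78 in KO. The remaining WT libraries, WT_acetate 2 (Shank3 7.80, Acr 4.46) and WT_acetate 5 (8.08, 3.62), had the same mixed pattern and were left out of those ranges. The library labelled WT_abx 3 is female by its label, yet its mean over 4 Y-linked genes was 4.90, beside 4.77 to 4.87 in the 5 libraries of these groups labelled male and 0.52 in WT_abx 4. In WT_acetate this mean went against the labelled sex in WT_acetate 2 (-0.06) and WT_acetate 4 (0.17), labelled male, and in WT_acetate 5 (3.36), labelled female. The fit took sex as labelled throughout. By the Y-linked genes, WT_abx without WT_abx 4 holds only libraries at the male level. WT_abx_and_acetate 4 (0.62) is at the female level, and the part of sex in the values without WT_abx 4 was not tested. Each result below is given with all libraries and, where the text says so, without WT_abx 4.

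Adding acetate to antibiotics passed the test at no gene. With limma, 0 of 14870 genes (0%) passed the threshold, the smallest adjusted p being 0.230, for Aldh4a1. At an unadjusted p under 0.05 there were 910 genes (6.12%), of which 499 (3.36%) had a higher and 411 (2.76%) a lower level with acetate, where 743.5 would come by chance if no gene differed and genes were independent. Without WT_abx 4 the count past the threshold was again 0 (0%), with a smallest adjusted p of 0.9997, and 456 genes (3.07%) lay at an unadjusted p under 0.05, 279 (1.88%) higher and 177 (1.19%) lower. Leaving out WT_abx 3 in place of WT_abx 4 gave 1435 genes at that p. Without the sex term, 930 genes (6.25%) were at that p with all libraries and 450 (3.03%) without WT_abx 4. None passed the threshold in either, the smallest adjusted p with all libraries being 0.145 in limma. Of the 910 genes, 366 were also at that p in the same direction without WT_abx 4 and 544 were not. The median absolute log2 fold was 0.09 with all libraries and 0.08 without WT_abx 4, smaller than the median SE of 0.12 and 0.13. In simulated data on the same 14870 genes and libraries, a shift of 0.5 log2 units was called in 52% of 100 genes and a shift of 1 in 79% of 100, so changes of those sizes in single genes could have been missed in part. Both sets were shifted together, among genes with a mean of at least 0 log2 CPM. Reads were drawn independently for each gene, with no sex effect and no shift shared within a library. Adjustment is stricter where fewer genes differ, so these shares may be too high for this comparison.

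**Figure D1:**
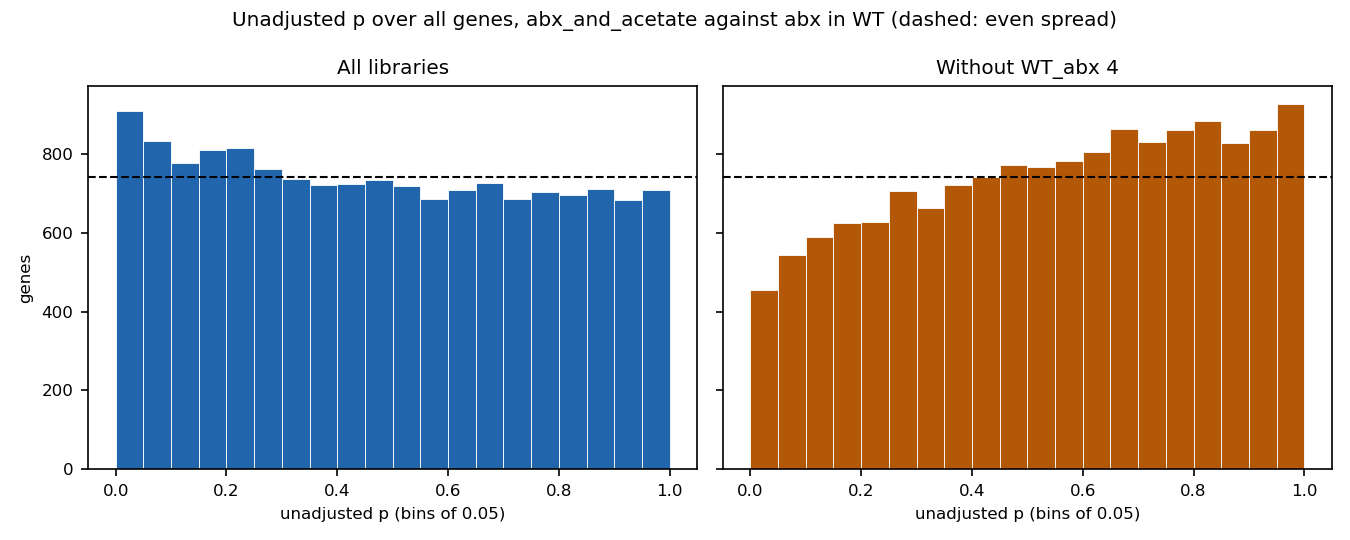
Number of genes (vertical axis) in each of 20 bins of unadjusted p (horizontal axis) for WT_abx_and_acetate against WT_abx, with all libraries and without WT_abx 4; the dashed line marks the 743.5 genes a bin would hold by chance. The first bin holds 910 genes with all libraries and 456 without WT_abx 4.

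The genes with the smallest p were 12 higher and 12 lower with acetate, all with a mean of at least 0 log2 CPM; they were picked by p in this comparison, so their values describe it and are no test of it. Those higher had log2 folds of 0.23 to 0.38, with Jakmip2, Ppp1r9a and Nrip1 among them. Those lower had log2 folds of -1.36 to -0.32, with Aldh4a1, Aldh9a1 and Mvk among them. The groups did not overlap at 9 of the 12 higher and 9 of the 12 lower genes, against 267 (1.8%) and 190 (1.28%) of all genes, and without WT_abx 4 again at 9 and 9, against 402 (2.7%) and 310 (2.08%); choosing by small p favours such genes. The 23 genes beside Aldh4a1 had adjusted p-values of 0.662 or less in limma, none past the threshold.

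Aldh4a1 encodes the mitochondrial dehydrogenase that completes the breakdown of proline to glutamate, and lies on chr4:139622866-139649690 (GRCm38, plus strand). Its level was 4.76, 4.86, 4.73 and 5.06 log2 CPM in WT_abx 1 to 4, and 4.42, 4.61, 4.29 and 4.49 in WT_abx_and_acetate 1 to 4. Every library with acetate lay below every library without it, and WT_abx 4 was the highest of all. The log2 fold was -0.39 ± 0.08 (SE), and -0.33 ± 0.08 without WT_abx 4. It was past the threshold only when WT_abx_and_acetate 2 was left out (-0.44, adjusted p = 0.0484 in limma), among the 16 other settings tried. The water group, at 4.73 ± 0.10 (SD, n = 6), lay nearer to WT_abx. Aldh9a1, another aldehyde dehydrogenase that acts in carnitine and GABA formation, was 5.04, 5.20, 4.79 and 5.12 against 4.54, 4.79, 4.79 and 4.55, a log2 fold of -0.39 ± 0.09. Here the groups met at 4.79.

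Mvk encodes mevalonate kinase of the cholesterol route. It was 4.33, 4.42, 4.25 and 4.45 log2 CPM in WT_abx and 4.03, 4.09, 4.07 and 4.04 in WT_abx_and_acetate. The acetate libraries lay close together and below all of WT_abx, at a log2 fold of -0.32 ± 0.09, and -0.28 ± 0.09 without WT_abx 4. Hist1h1c, a linker histone, was 3.95, 4.29, 4.19 and 4.36 against 3.60, 3.58, 3.47 and 3.32, a log2 fold of -0.72 ± 0.20 with groups apart. Ctu2, which takes part in thiolation of transfer RNA, was 3.85, 4.10, 4.13 and 4.07 against 3.66, 3.79, 3.62 and 3.75, also apart. Tm7sf3, a membrane protein, was 5.32, 5.26, 5.03 and 5.24 against 4.89, 4.90, 4.89 and 4.98, with a log2 fold of -0.32 ± 0.09.

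Emp1, an epithelial membrane protein, had the lowest log2 fold of the lower genes. It was 1.78, 1.31, 1.21 and 2.44 log2 CPM in WT_abx and 0.32, 0.20, 0.30 and 0.46 in WT_abx_and_acetate, so the groups were apart, and WT_abx 4 was the highest. The log2 fold was -1.36 ± 0.38, and -1.11 without WT_abx 4. The rest of the lower genes were Rasl12 (-0.50 ± 0.13), Gm694 (-0.99 ± 0.27), Aspn, a matrix proteoglycan (-1.14 ± 0.32), Ehd4, which acts in endosome recycling (-0.34 ± 0.10), and Mettl25 (-0.57 ± 0.17).

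Among the higher genes, Jakmip2 was 5.67, 5.83, 5.90 and 5.59 log2 CPM in WT_abx and 6.13, 6.04, 6.09 and 5.98 in WT_abx_and_acetate. Its groups did not overlap, and WT_abx 4 was again at the edge, here the lowest. The log2 fold was 0.31 ± 0.07, and 0.26 without WT_abx 4. Ppp1r9a, the actin-binding spine protein neurabin, was 8.23, 8.28, 8.47 and 8.06 against 8.60, 8.52, 8.53 and 8.68 (0.33 ± 0.08). Adam22, a synaptic receptor for LGI1, was 7.50, 7.52, 7.58 and 7.39 against 7.72, 7.64, 7.66 and 7.88 (0.23 ± 0.06). In both genes every acetate library lay above every library without it.

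The higher genes also included Nrip1, Foxp1, Sfmbt1 and Klhl23. Nrip1, a nuclear receptor corepressor, was 5.22, 5.17, 5.34 and 5.07 log2 CPM against 5.48, 5.42, 5.40 and 5.68. Foxp1, a forkhead factor, was 6.24, 6.09, 6.35 and 6.10 against 6.46, 6.38, 6.49 and 6.58, a log2 fold of 0.30 ± 0.08. Sfmbt1, a Polycomb-related protein, was 4.95, 5.04, 5.08 and 4.92 against 5.41, 5.17, 5.30 and 5.31. All 3 were apart between the groups, and in each WT_abx 4 was among the 2 lowest libraries. Klhl23 was 5.93, 6.02, 6.01 and 5.89 against 6.19, 6.21, 6.26 and 6.24 (0.26 ± 0.06). Fgf14, which binds neuronal sodium channels, was at a log2 fold of 0.37 ± 0.09, the potassium channel gene Kcnh7 at 0.38 ± 0.10, Arhgap20 at 0.36 ± 0.09, Usf3 at 0.29 ± 0.08 and Vps13b at 0.26 ± 0.07.

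**Figure D2:**
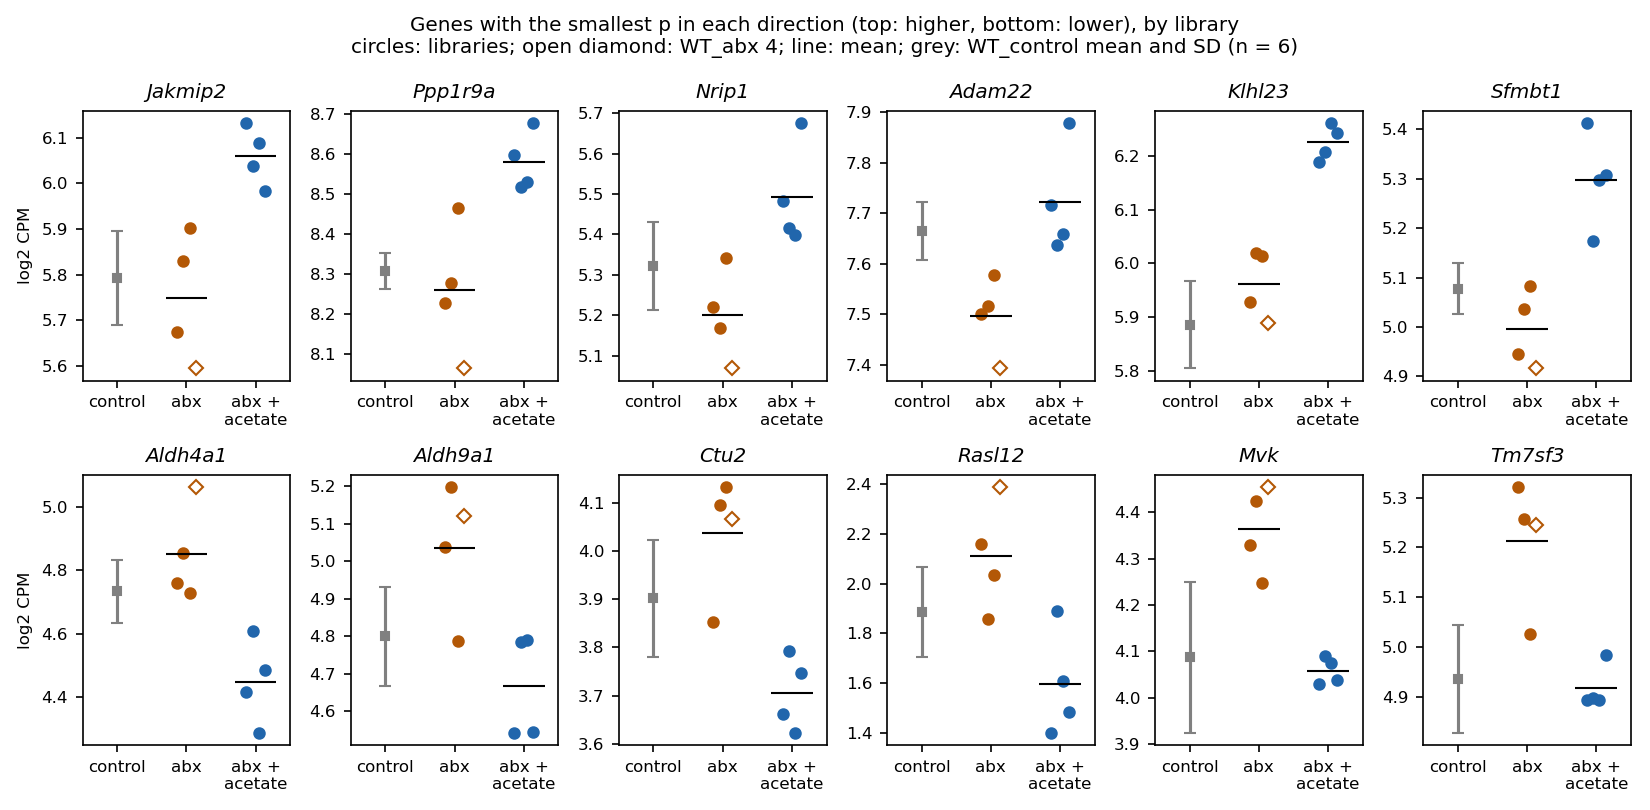
Log2 CPM (vertical axis) of 12 of the leading genes in each library of WT_abx and WT_abx_and_acetate, 6 higher with acetate in the upper row and 6 lower in the lower row; circles are libraries, the open diamond is WT_abx 4, lines are group means, and the grey square and bar are the WT_control mean ± SD (n = 6). Aldh4a1 runs from 4.29 to 4.61 with acetate and from 4.73 to 5.06 without, and of the 12 only Aldh9a1 and Rasl12 have groups that meet or overlap.

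Leaving out WT_abx 4 kept 15 of the 24 genes in a list chosen by the same rule, and the 24 of each fit made up 33 genes in all. Among those that entered, Arfgap3, which acts on Golgi coats, was 4.16, 4.22, 4.20 and 4.64 log2 CPM in WT_abx and 4.58, 4.56, 4.56 and 4.50 in WT_abx_and_acetate. Tmtc1, a mannosyltransferase of the endoplasmic reticulum, was 6.36, 6.42, 6.41 and 6.83 against 6.68, 6.66, 6.66 and 6.96. In both, WT_abx 4 lay with the acetate group, so the log2 fold was 0.25 ± 0.10 with it and 0.36 ± 0.09 and 0.35 ± 0.10 without it. Unc5d, a netrin receptor, was 4.29, 4.14, 4.52 and 4.46 against 4.90, 4.88, 4.77 and 5.07, apart in both fits at 0.58 ± 0.17 with all libraries. The sterol enzyme gene Msmo1 entered as well and is described with its route.

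The same genes were looked at in KO mice, whose libraries are not those of the WT comparison. In KO, 0 genes (0%) passed the threshold and 298 (2%) were at an unadjusted p under 0.05. Of the 12 genes higher in WT, 1 had a log2 fold above 0 in KO, and the 12 had a KO median of -0.06, from -0.11 to 0.05. Of the 12 lower in WT, 5 were below 0 in KO, with a KO median of 0.03, from -0.62 to 0.15. Aldh4a1 had a KO log2 fold of -0.07 ± 0.08, Jakmip2 0.05 ± 0.08, and Mvk 0.15 ± 0.09. Over all genes, 49.7% had the same sign in WT and KO, and the 2 sets of log2 folds had a Pearson correlation of 0.08 across the 14870 genes, which are not independent replicates and whose estimates share 1 sex term. Without WT_abx 4 these were 44.5% and -0.03.

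**Figure D3:**
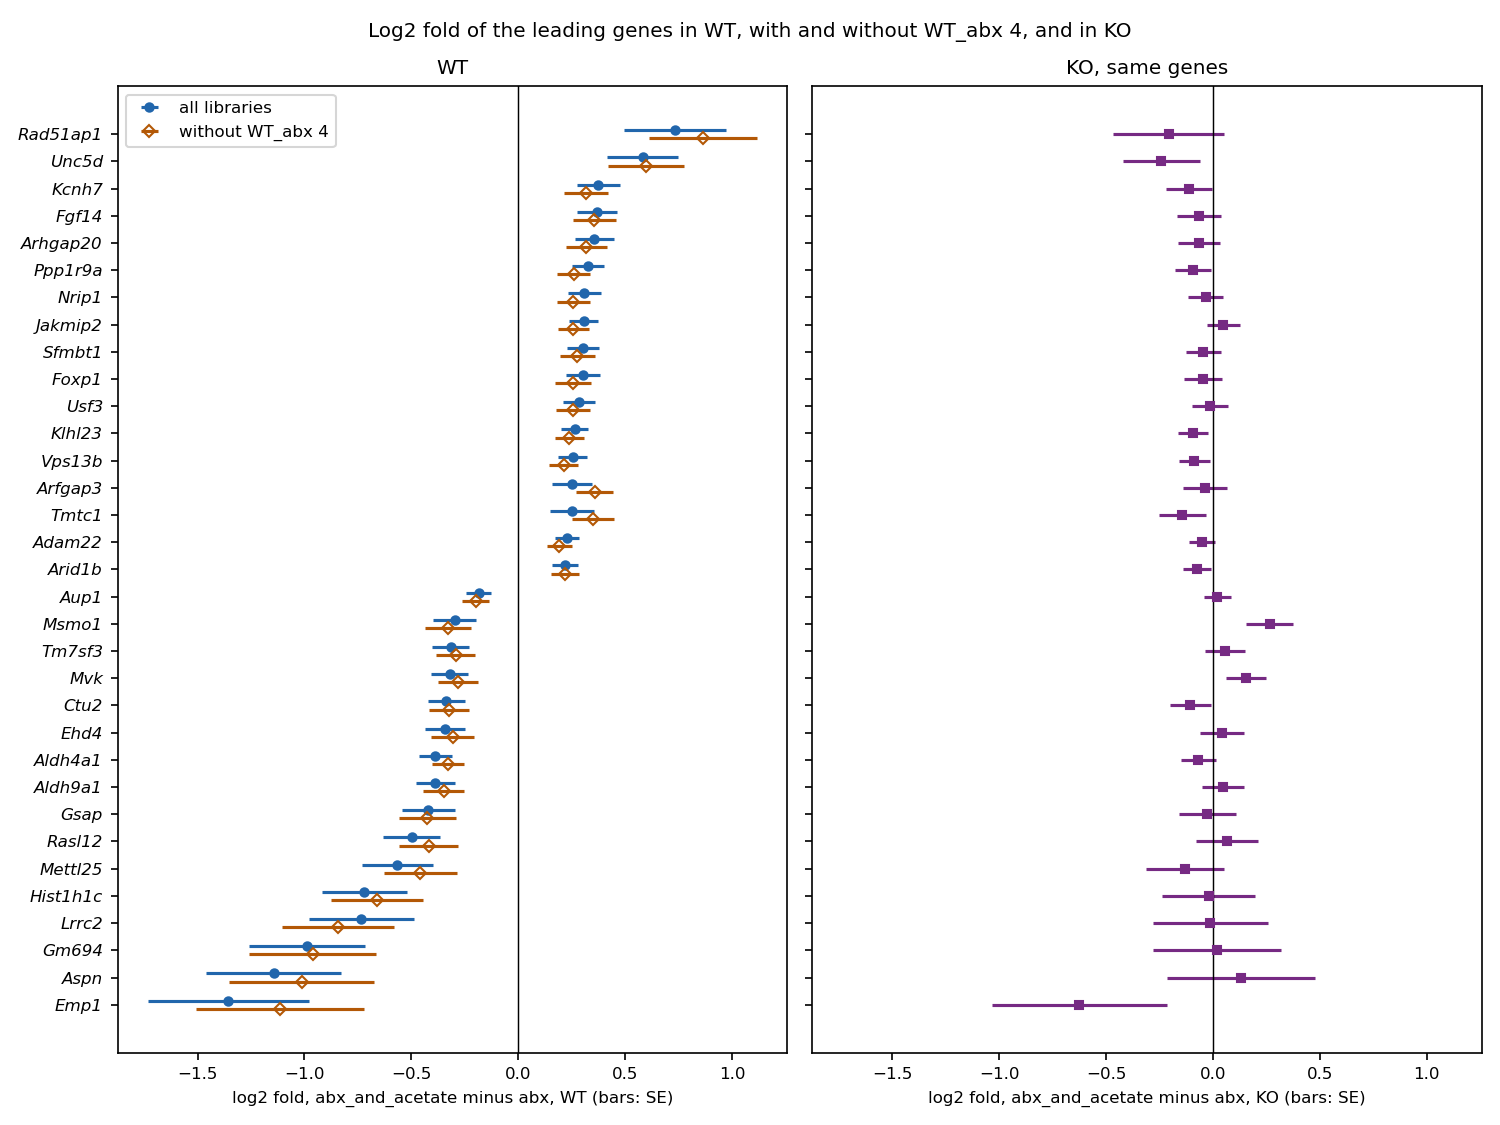
Log2 fold of abx_and_acetate minus abx (horizontal axis) for the 33 leading genes, in WT with all libraries and without WT_abx 4 (left) and in KO (right); bars are SE. In WT each gene keeps its sign without WT_abx 4, which picking the genes by p in these WT fits favours. In KO the folds lie on both sides of 0 and the lowest, Emp1, is at -0.62 ± 0.41.

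A difference between the genotypes was tested itself. For the WT log2 fold minus the KO log2 fold, 0 genes (0%) passed the threshold in limma and 561 (3.77%) were at an unadjusted p under 0.05, with 459 without WT_abx 4. The differences were -0.47 ± 0.13 at Mvk, -0.67 ± 0.18 at Idi1 and -0.56 ± 0.15 at Msmo1, with adjusted p-values of 0.9998. Acetate with antibiotics was also set against acetate without them, as the log2 fold above minus that of WT_acetate against WT_control. Of the WT_acetate libraries 3 of 5 go against their labels, as given above. Again 0 genes (0%) passed in limma, with 715 (4.81%) at an unadjusted p under 0.05, 553 without WT_abx 4 and 506 without all libraries against their labels. For Aldh4a1 this second difference was -0.33 ± 0.10 and for Mvk -0.42 ± 0.11. Whether the responses are alike is not shown by these counts.

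The levels were also set beside those of water-treated mice; these comparisons share WT_abx or WT_abx_and_acetate with the main one. Against WT_control, 0 genes (0%) passed the threshold in WT_abx and 108 (0.726%) in WT_abx_and_acetate; in limma 1345 genes of the former were at an unadjusted p under 0.05. The 108 became 4 without WT_abx_and_acetate 1 and 0 without WT_abx_and_acetate 3, where 1724 were at an unadjusted p under 0.05. Mvk had a log2 fold of 0.28 in WT_abx and -0.04 in WT_abx_and_acetate, and Tm7sf3 had the same pair of values. Aldh4a1 stood at 0.12 and -0.27, and Jakmip2 at -0.04 and 0.26. Klhl23 stood at 0.08 and 0.34. Of the 24 leading genes, Jakmip2 (adjusted p = 0.0426 in limma) and Klhl23 (adjusted p = 0.0116) were past the threshold in WT_abx_and_acetate against WT_control. The 24 were chosen through the same WT_abx_and_acetate libraries, which favours such genes, so these p-values are no separate test of them.

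Genes that turn acetate into acetyl-CoA, or make acetyl-CoA by other routes, showed no common direction. Of 18 measured, 10 were above 0 and 8 below, with a median log2 fold of 0.01 (-0.04 without WT_abx 4, 6 above and 12 below), where the median absolute log2 fold of all genes was 0.09. At an unadjusted p under 0.05 there were 2 (all genes 6.12%), which became 0 without WT_abx 4, and 1 had groups apart in both cases (all genes 3.07%, and 4.79% without WT_abx 4). Acss1, the mitochondrial acetyl-CoA synthetase, was 4.77, 4.67, 4.72 and 5.04 log2 CPM in WT_abx and 4.37, 4.60, 4.51 and 4.59 in WT_abx_and_acetate. All 4 acetate libraries were lower, at a log2 fold of -0.27 ± 0.10, while KO stood at 0.16 ± 0.11. Acss2, the synthetase of cytosol and nucleus, was 5.96, 5.72, 5.76 and 5.92 against 5.67, 5.75, 5.58 and 5.95, so its groups overlapped (-0.09 ± 0.11). Acly, which makes acetyl-CoA from citrate, was at -0.05 ± 0.07, and Slc25a1, which exports citrate from mitochondria, at -0.15 ± 0.07.

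Of the genes for monocarboxylate transport and acid sensing, 11 of 16 were measured; the acid receptor genes Ffar2, Ffar3 and Hcar2 were not analysed here. Their median log2 fold was -0.01, with 5 above 0 and 6 below. Slc16a7, the transporter MCT2 of neurons, was 5.19, 5.23, 5.36 and 5.04 log2 CPM in WT_abx and 5.45, 5.38, 5.29 and 5.80 in WT_abx_and_acetate. The groups overlapped, with WT_abx_and_acetate 4 the highest, and the log2 fold was 0.30 ± 0.10 (0.23 ± 0.10 without WT_abx 4). Slc16a1, MCT1 of endothelium and glia, was at -0.13 ± 0.14 and Slc16a3, MCT4 of astrocytes, at -0.38 ± 0.21. The lactate receptor gene Hcar1 was 0.81, -0.42, 0.86 and 2.57 against 0.13, 0.45, 0.25 and 0.29, with WT_abx 4 the highest, and its log2 fold was -0.58 ± 0.57 (-0.12 without WT_abx 4).

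Histone acetylation is written by acetyltransferases, removed by deacetylases and read by bromodomain proteins. The 19 acetyltransferase genes had 9 above 0 and 10 below, with a median of 0.00. In both fits 2 had groups apart, both higher (all genes 3.07%, and 4.79% without WT_abx 4). Kat6b was 6.04, 6.09, 6.11 and 6.04 log2 CPM against 6.22, 6.29, 6.20 and 6.23, apart between the groups at 0.16 ± 0.07. Clock, also a core factor of the circadian loop, was at 0.18 ± 0.07. The 18 deacetylase genes had 5 above 0 and 13 below, with a median of -0.05, all between -0.16 and 0.16 and 0 at an unadjusted p under 0.05. Without WT_abx 4 they had 8 above 0 and 10 below, with a median of -0.003. The 31 reader genes had 23 above 0 and 8 below, with a median of 0.07, against 5 above and 26 below and a median of -0.06 in KO. The WT median was 0.01 without WT_abx_and_acetate 4 and 0.04 without WT_abx 2 or WT_abx 4. Atad2 was 2.99, 3.39, 3.26 and 3.03 against 3.95, 3.82, 3.74 and 3.29, with a log2 fold of 0.55 ± 0.18. Its groups overlapped through WT_abx_and_acetate 4, the shallowest library.

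Acetyl-CoA is also the carbon source of cholesterol, through HMG-CoA, mevalonate, isoprenes, squalene and lanosterol, and the genes of this route are switched together by SREBP-2 when sterols are short. Of 27 genes of the route and its control, 23 were below 0 and 4 above with acetate in WT, with a median log2 fold of -0.10. At an unadjusted p under 0.05 there were 7 of the 27, where all genes gave 6.12%, and 5 had groups apart, all lower, where all genes gave 1.28%; none passed the threshold. Without WT_abx 4 the counts were 24 below and 3 above with the same median, 6 at that p (all genes 3.07%) and 10 lower with groups apart (all genes 2.08%). In KO, 24 were above 0 and 3 below, with a median of 0.18. The list was chosen with earlier results of these data known, so these counts are a description.

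Along the route, Hmgcs1, which makes HMG-CoA, was 8.44, 8.47, 8.40 and 8.20 log2 CPM in WT_abx and 8.29, 8.20, 8.15 and 8.14 in WT_abx_and_acetate. The log2 fold was -0.18 ± 0.10 in WT and 0.28 ± 0.11 in KO; in WT the groups overlapped through WT_abx 4, the lowest of its group. Of the kinase and decarboxylase steps after Mvk, Pmvk was at -0.13 ± 0.06 and Mvd at -0.20 ± 0.10. Idi1, which isomerises isopentenyl diphosphate, was 6.18, 5.85, 5.77 and 5.86 against 5.59, 5.38, 5.53 and 5.76, with groups apart, at -0.33 ± 0.12 in WT and 0.35 ± 0.13 in KO. Msmo1, a sterol demethylation enzyme, was 6.30, 6.14, 6.12 and 6.09 against 5.94, 5.72, 5.68 and 6.04, also apart, at -0.30 ± 0.10 in WT and 0.27 ± 0.11 in KO.

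The other steps lay nearer to 0 in WT. Fdps was at -0.10 ± 0.09 (KO 0.33 ± 0.10), Cyp51 at -0.05 ± 0.11 (KO 0.36 ± 0.12), Sqle at -0.21 ± 0.10 (KO 0.27) and Nsdhl at -0.20 ± 0.08 (KO 0.21). Among the controllers, Srebf2, which encodes SREBP-2, was at -0.06 ± 0.07, its escort Scap at 0.00, and its retention factor Insig1 at -0.10 ± 0.10. A library's list score is the average, across the genes of a list, of its log2 CPM less the mean of that gene in WT. It was 0.11, 0.09, 0.10 and 0.04 in WT_abx and 0.06, -0.02, -0.04 and -0.08 in WT_abx_and_acetate, with water between -0.16 and 0.00. WT_abx was the highest of the 3 groups, and 1 acetate library lay above WT_abx 4. The fatty acid genes, which share the acetyl-CoA source, had 8 of 23 above 0 and 15 below, with a median of -0.03.

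**Figure D4:**
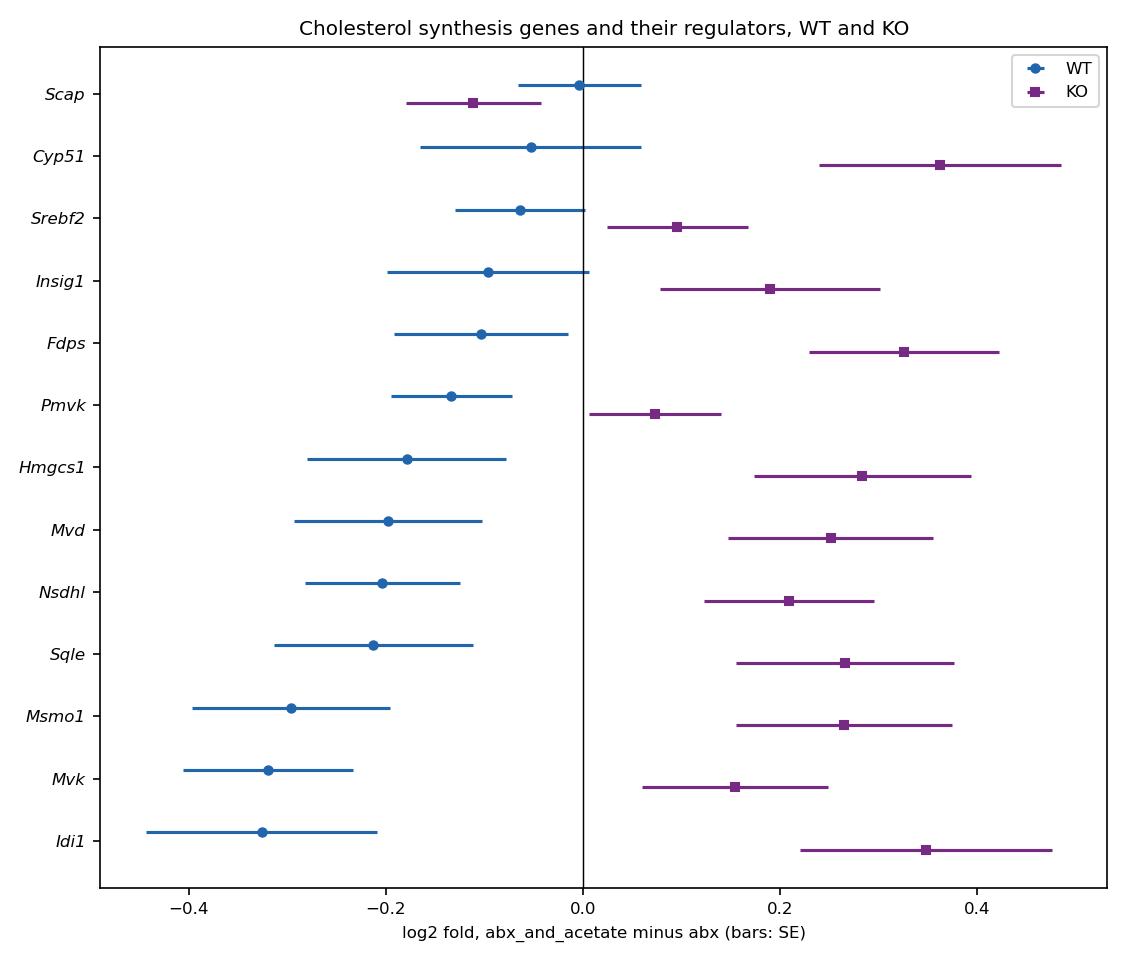
Log2 fold of abx_and_acetate minus abx (horizontal axis) for the cholesterol genes whose values the text gives, in WT and in KO; bars are SE. Most lie below 0 in WT and above 0 in KO, as Idi1 does at -0.33 ± 0.12 and 0.35 ± 0.13.

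The promoters of Hmgcs1 and Mvk are shown because SREBP-2 acts through such regions and both genes act early in the route. Windows are the 250 bases before the RefSeq start on GRCm38.p6, plus strand, 5′ to 3′; Hmgcs1 is chr13:119690101-119690350 and Mvk is chr5:114444019-114444268. Capitals mark a match to the sterol regulatory element searched, CACNCCAC on either strand.
Hmgcs1: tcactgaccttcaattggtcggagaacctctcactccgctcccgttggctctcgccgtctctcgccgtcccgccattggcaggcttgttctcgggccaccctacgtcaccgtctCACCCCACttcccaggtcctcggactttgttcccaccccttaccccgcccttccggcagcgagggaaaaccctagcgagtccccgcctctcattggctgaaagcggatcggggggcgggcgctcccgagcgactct
Mvk: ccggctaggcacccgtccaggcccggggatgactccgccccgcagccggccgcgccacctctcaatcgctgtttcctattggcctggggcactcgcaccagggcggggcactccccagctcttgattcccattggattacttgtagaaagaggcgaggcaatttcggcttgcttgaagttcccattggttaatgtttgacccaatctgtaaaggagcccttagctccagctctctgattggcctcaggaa
The motif was in 3 of 23 windows of the list (13.04%), those of Acat2, Hmgcs1 and Insig1, and in 5.29% of all 32851 windows of the same length; 19 of the 27 members had a window. A match is only a description of the letters, and the Mvk window held 0.

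Genes switched on within minutes by neuronal activity, the immediate early genes, mostly had lower means with acetate but varied strongly between libraries. Of 34, 32 were below 0 and 2 above, with a median log2 fold of -0.34 (0 above and a median of -0.45 without WT_abx 4), while in KO 24 were above and 10 below with a median of 0.13. At an unadjusted p under 0.05 there were 4 (all genes 6.12%), and 1 had groups apart (all genes 3.07%). Without WT_abx 4 there were 2 at that p (all genes 3.07%) and 4 with groups apart (all genes 4.79%). Fos was 6.50, 5.22, 5.50 and 4.66 log2 CPM in WT_abx and 5.19, 5.34, 5.64 and 4.10 in WT_abx_and_acetate, which overlap (-0.40 ± 0.52). Nr4a3 was 5.65, 5.02, 5.34 and 5.01 against 4.64, 4.60, 4.63 and 4.72, the groups being apart (-0.56 ± 0.31). Jund, a less inducible Jun family member, was 7.93, 7.66, 7.81 and 7.85 against 7.50, 7.76, 7.66 and 7.26, at -0.27 ± 0.08. Arc was at -0.47 ± 0.57, Egr1 at -0.29 ± 0.37, Klf4 at -0.79 ± 0.34 and Klf2 at -0.65 ± 0.28. List scores were 0.69, -0.23, 0.14 and -0.18 in WT_abx and -0.24, -0.11, -0.02 and -0.60 in WT_abx_and_acetate. WT_abx 1 alone held the high end, and the median log2 fold was -0.10 without WT_abx 1 and also without WT_abx_and_acetate 4, while the water group ran from -0.05 to 0.77. The cAMP response element TGACGTCA was in 3 of 39 windows of the list (7.69%), those of Btg2, Dusp1 and Maff, and in 1.55% of all windows. A window was at hand for 25 of the 34 members. As the textbook element of this list, its share there is no result of these data.

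Targets of the glucocorticoid receptor, which stress hormones activate, had 20 of 22 below 0 and 2 above, with a median of -0.27 (-0.25 without WT_abx 4), and 11 on each side with a median of 0.02 in KO. Tsc22d3 was 6.20, 5.86, 6.08 and 5.998 log2 CPM in WT_abx and 5.34, 5.13, 5.34 and 6.34 in WT_abx_and_acetate. WT_abx_and_acetate 4 was the highest of the 8 libraries and the other 3 with acetate the lowest, so the log2 fold was -0.44 ± 0.23. Per1, shared with the circadian list, was 7.41, 6.73, 7.03 and 6.998 against 6.25, 6.78, 6.42 and 6.85 (-0.43 ± 0.20). Per2 was 5.33, 5.35, 5.57 and 5.39 against 4.09, 4.65, 4.55 and 6.04 (-0.50 ± 0.27). It split in the same way as Tsc22d3. Fkbp5 was at -0.04 ± 0.31. List scores were 0.26, -0.10, 0.24 and 0.22 against -0.24, -0.19, -0.24 and 0.24.

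Of 21 circadian clock genes, 14 were below 0 and 7 above, with a median of -0.06. Their scores were 0.05, -0.11, 0.03 and 0.04 in WT_abx and -0.30, -0.15, -0.17 and 0.28 in WT_abx_and_acetate. WT_abx_and_acetate 4 stood apart upward and the other 3 acetate libraries were the lowest. The median ran from -0.16 without that library to 0.00 without WT_abx_and_acetate 1. WT_abx_and_acetate 4 is also the shallowest and the only female of its group. The part of depth and sex in these values was not tested. Arntl was at 0.30 ± 0.16. The E-box CACGTG was in 6 of 27 windows of the clock list (22.2%), from 5 of the 18 members with a window, and in 6.02% of all windows. It was searched as the textbook element of this list, so its share there is no result of these data.

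Synapse genes mostly had higher means with acetate, by less without WT_abx 4, and none passed the threshold. Of 22 GABA synapse genes, 16 were above 0 and 6 below, with a median of 0.14 (0.06 without WT_abx 4), and 16 and 6 with a median of 0.05 in KO. Among them 2 were at an unadjusted p under 0.05 (all genes 6.12%), and 1 higher and 1 lower gene had groups apart (all genes 3.07%). Without WT_abx 4, 1 was at that p (all genes 3.07%), and 2 higher and 1 lower were apart (all genes 4.79%). Gabra2, a subunit of the GABA-A receptor, was 5.43, 5.46, 5.17 and 5.72 log2 CPM in WT_abx and 6.09, 6.17, 6.24 and 5.95 in WT_abx_and_acetate. The groups were apart, at a log2 fold of 0.73 ± 0.25 (0.78 ± 0.27 without WT_abx 4), with 0.12 ± 0.27 in KO. Gabra2 passed the threshold in 1 setting, without WT_abx 4 and with only the libraries of the 2 groups (adjusted p = 0.0232 in limma). Gabrb2, another subunit, was at 0.29 ± 0.12, and Slc32a1, the vesicular GABA transporter, at -0.16 ± 0.12. The list scores were -0.07, -0.01, 0.02 and -0.16 against 0.05, 0.07, 0.05 and 0.07, apart between the groups. No other list described had scores apart, and with this many lists such a case can come by chance.

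Of 24 glutamate receptor genes, 17 were above 0 and 7 below, with a median of 0.08 (0.03 without WT_abx 4 and 0.16 without WT_abx 3). Among them 3 were at an unadjusted p under 0.05 (all genes 6.12%), or 1 without WT_abx 4 (all genes 3.07%). In both fits 2 had groups apart, both higher (all genes 3.07%, and 4.79% without WT_abx 4). Grin2b, an NMDA receptor subunit, was 9.06, 8.72, 9.08 and 8.50 log2 CPM in WT_abx and 9.28, 9.27, 9.13 and 9.37 in WT_abx_and_acetate. The groups were apart, with WT_abx 4 the lowest, and the log2 fold of 0.43 ± 0.15 was 0.31 ± 0.15 without it and -0.05 in KO. Grin2a was at 0.27 ± 0.12. Grm7, a presynaptic receptor, was 5.77, 5.76, 5.75 and 5.59 against 5.93, 5.87, 5.84 and 5.98, also apart (0.18 ± 0.08). Of 28 postsynaptic scaffold genes, 22 were above 0 and 6 below, with a median of 0.08, and 5 were at an unadjusted p under 0.05 (all genes 6.12%). Without WT_abx 4, 19 were above 0 and 9 below, the median was 0.04, and 0 were at that p (limma; none passed the threshold in either fit). The 5 included Lrrc7, densin-180 (0.37 ± 0.13), and Cnksr2 (0.30 ± 0.13).

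Genes of the ribosome and mitochondria had medians near 0 in WT. Of 78 ribosomal protein genes, 69 were below 0 and 9 above, with a median of -0.07 (-0.03 without WT_abx 4), whereas in KO 76 were above and 2 below, with a median of 0.11. The median of 74 nuclear genes of oxidative phosphorylation was -0.01, with 32 above 0 and 42 below, and 73 of the 74 were above 0 in KO. The 13 mitochondrially encoded genes had a median of -0.02 in WT and 0.15 in KO.

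Marker genes of cell types were set beside these lists, since a punch holds many cell types and in bulk RNA fewer cells of a type and less RNA per cell cannot be told apart. Neuron markers were all detected and had 11 of 12 above 0, with a median of 0.08. Upper layer markers had 10 of 12 above 0 and a median of 0.18 (0.29 without WT_abx 1, 0.04 without all libraries against their labels), and deep layer markers 10 of 14 below and a median of -0.23 (-0.35 without WT_abx 4). In KO these medians were -0.13 and 0.31. Rorb, a layer 4 factor, was 4.32, 3.78, 3.86 and 3.73 log2 CPM against 4.26, 4.38, 4.30 and 4.93 (0.56 ± 0.21). Leaving out single libraries put the deep layer median between -0.40 and -0.11, and it was 0.001 with male-labelled libraries only. Deep layer scores ran from 0.01 to 0.57 in WT_abx and from -0.52 to 0.92 in WT_abx_and_acetate, which overlap, and their part in the other values was not tested.

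Glial and vascular marker lists had medians below 0. All 24 oligodendrocyte and myelin markers were below 0, with a median of -0.38 (1 above 0 and a median of -0.28 without WT_abx 4), against 20 above and 4 below in KO. Their summed level was 2769 to 4663 CPM in WT_abx and 2064 to 4316 in WT_abx_and_acetate, which overlap, and none of the 24 had 0 reads in all libraries. Astrocyte markers had 17 of 20 below 0 and a median of -0.17 (15 below and a median of -0.10 without WT_abx 4). Microglial markers had 21 of 22 below 0 and a median of -0.13, with C1qb, a complement gene, at -0.32 ± 0.13. Without WT_abx 4 they had 15 below and 7 above, and a median of -0.10. Blood markers had 5 of 6 below 0 and a median of -0.56 (-0.27 without WT_abx_and_acetate 1, -1.12 without WT_abx_and_acetate 4), and Alas2, of red cell haem synthesis, was at -0.85 ± 0.39. The median of striatal markers was 0.01 and of interneuron markers -0.05. Without single libraries the medians ran from -0.58 to -0.26 for oligodendrocytes, from -0.25 to -0.09 for astrocytes and from -0.24 to -0.05 for microglia. The part of these markers in the synapse, sterol and activity values was not tested.

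The markers of meninges and choroid plexus, tissues beside the cortex, varied most with the libraries included. The summed level of 22 meningeal fibroblast markers was 862, 261, 516 and 3514 CPM in WT_abx and 561, 715, 669 and 485 in WT_abx_and_acetate. WT_abx 4 stood far above the rest. With it, all 22 were below 0 with a median of -0.65, and without it 13 were below and 9 above with a median of -0.15. In KO, whose libraries are other ones, all 22 were also below 0, with a median of -0.82. Their summed level was 493 to 1458 CPM in KO_abx and 293 to 693 in KO_abx_and_acetate, which overlap. The WT median was -1.13 without WT_abx 2, -0.42 without WT_abx_and_acetate 4, 0.18 with male-labelled libraries only and 0.05 without all libraries against their labels. Only 9 of 17 choroid plexus markers were measured, and Folr1, Otx2 and Aqp1 were among those missing. Choroid plexus scores were -0.19, -0.68, -0.37 and 2.15 against -0.12, -0.38, -0.46 and 1.004, high in WT_abx 4 and WT_abx_and_acetate 4. The members did not all move together, since Slc5a5 was low in WT_abx_and_acetate 4 (3.62 log2 CPM, others 3.84 to 3.87). The medians of endothelium (-0.14 and -0.03), pericytes (-0.25 and -0.09) and interferon-stimulated genes (-0.19 and 0.01) likewise lay nearer to 0 without WT_abx 4.

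**Figure D5:**
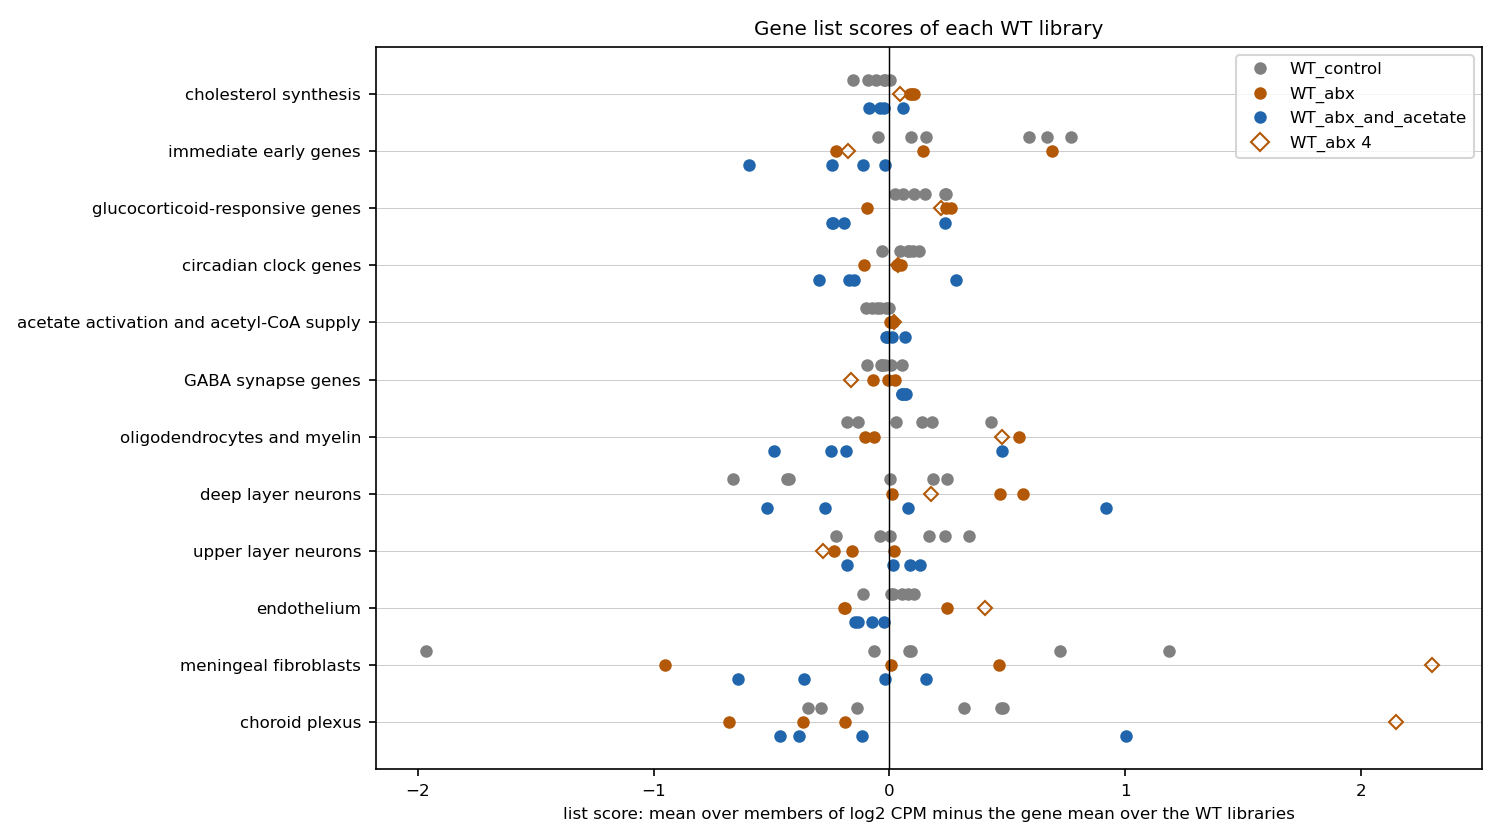
List score (horizontal axis, log2 units) of each library of WT_control, WT_abx and WT_abx_and_acetate for 12 gene lists; the open diamond is WT_abx 4. The GABA synapse scores do not overlap between the 2 antibiotic groups, at -0.16 to 0.02 and 0.05 to 0.07. Those of all the other lists shown overlap, and WT_abx 4 stands at 2.15 for choroid plexus.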

How the data were processed

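Bulk RNA-seq libraries of mouse mPFC were analysed from 1 deposited matrix of 14870 genes and 35 libraries, matched to samples by title, with 0 columns left unused. The values are log2 CPM that the authors deposited in voom form: with the 0.5 read of that form taken off, 100% of values were whole reads to within 0.01, which gave the depth. Limma is named, without a version, in the submitters' processing notes; per the labels' protocols, libraries came from a strand-marking kit and were read as paired ends. The aligner, genome build, counting tool, strand setting and low-count filter were not given in the sources used here, so reads of overlapping or near-identical genes may be shared. Some 12 rows repeat another row.

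All 35 libraries entered 1 limma 3.58.1 fit (R 4.3.3) with 8 group means, labelled sex and a variance trend. P-values were 2-sided, adjusted by Benjamini-Hochberg over all genes, threshold 0.05, with no further filter. The members and lists were chosen with earlier results of these data known. Named genes are the 12 with the smallest p in each direction with a mean of at least 0 log2 CPM, in the fits with and without WT_abx 4, Shank3, Acr, and the 3 members with the smallest p in each list described; other list members were named for their role after their values were seen. Some list members are counted but not reported here by name. Symbols of 14427 genes (97.0%) matched GENCODE vM21 on GRCm38. Promoter windows come from RefSeq, GRCm38.p6, and the 50 bases after the start were left out. The fit was tested on simulated data: with all libraries 3 unchanged genes were called, and without WT_abx 4, 54% and 86% of genes changed by 0.5 and 1 were called, with 5 unchanged. Alternatives were the sex term, libraries in the fit, weights, scaling, pseudocount, a filter on low values and each library left out.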

Additional observations from a re-analysis of the deposited data

Results flagged for a closer look

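A value was singled out where the gap between the highest or lowest library and the nearest of the others took up a larger part of the range of its group of 4 than Dixon's 95% critical value, a rule that chance meets in about 1 of 20 groups (5%). Of 338 groups of values looked at, 18 (5.33%) met it, near that share. WT_abx_and_acetate 4 was the library in 8 of them, WT_abx 4 in 5, WT_abx 2 in 3, and WT_abx 1 and WT_abx_and_acetate 2 in 1 each.

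In WT_abx_and_acetate 4 the layer genes Rorb (4.93 log2 CPM, others 4.26 to 4.38) and Pou3f2 (5.63, others 5.06 to 5.11) were high, as were Tmtc1 (6.96, others 6.66 to 6.68), the coactivator Ncoa1 (7.24, others 7.07 to 7.09) and Tm7sf3 (4.98, others 4.89 to 4.90). Cdh5, the cadherin of endothelium, was low (3.68, others 4.01 to 4.06), as was Slc5a5 (3.62, others 3.84 to 3.87). The glucocorticoid score of that library was 0.24, with the others from -0.24 to -0.19.

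In WT_abx 4, Acr was high (4.56 log2 CPM, others -0.14 to 0.45), as were Arfgap3 (4.64, others 4.16 to 4.22) and Tmtc1 (6.83, others 6.36 to 6.42), and Grm7 was low (5.59, others 5.75 to 5.77). Its score for monocarboxylate transport and acid sensing was 0.14, with the others from -0.09 to -0.06. In WT_abx 2 the glucocorticoid score was -0.10 (others 0.22 to 0.26), the clock score -0.11 (others 0.03 to 0.05) and the deep layer gene Nxph4 -0.0129 log2 CPM (others 0.40 to 0.45). The exosome gene Exosc5 was 3.17 in WT_abx 1 (others from 3.498 to 3.54), and Lrrc2 was -0.24 in WT_abx_and_acetate 2 (others 0.43 to 0.54).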

How the results depend on the processing

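The count of genes past the threshold was 0 with all libraries, and lay between 0 and 1 when each library was left out; the 1 was Aldh4a1, without WT_abx_and_acetate 2. With only the libraries of the 2 groups it was 1 (the pseudogene Cbx3-ps7, adjusted p = 0.0266 in limma, whose reads may be shared with near-identical copies), and without WT_abx 4 likewise 1 (Gabra2). The WT minus KO count was 1 with male-labelled libraries only (Gm14288, adjusted p = 0.0250 in limma), where KO_abx_and_acetate has 1 library, which is assumed to vary like the other groups. The cause of these was not tested. The count for acetate with minus without antibiotics was 0 in the 16 settings. The 33 leading genes kept their sign in all 528 values over 16 settings, 1 of these values being past the threshold. They were picked by small p in fits that share most libraries with these settings, which favours a kept sign, so this is no separate test of them. Of the named genes, 5 values turned sign: Hcar1 (0.0816 with males only, 0.0364 without the libraries against their labels), Slc5a5 (0.0255 with males only) and Kl (0.0756 without the libraries against their labels, and from -0.73 to 0.0748 when each library was left out, the highest without WT_abx 4). Of the list medians under these settings, 538 moved by less than the spread between libraries and 22 by more. Some medians near 0 turned sign: in 10 of 16 settings for acetyl-CoA supply, 7 for histone acetyltransferases and 4 for striatal markers. The other lists turned in 3 settings or fewer, or in none. For both interactions, the males-only, median-of-ratios and log2(CPM + 1) settings were chosen after seeing the data. Median-of-ratios scaling was computed directly, and edgeR's quasi-likelihood test was not run, since the deposited values are log2. No paired analysis was possible because the labels carry no replicate numbers. At this size, simulated shifts of 0.5 and 1 were called in 52% and 79% of genes, under the limits of the simulation given above.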

Other observations

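Other groups of genes not described above had medians near 0. Cytosolic heat shock chaperones had 22 of 30 above 0 and a median log2 fold of 0.04, with members from -0.85 to 0.14; without WT_abx 4 they had 14 above and 16 below, and a median of -0.001. Endoplasmic reticulum stress genes had 19 of 26 below 0 and a median of -0.06 (-0.09 without WT_abx 4). The RNA exosome subunits, which degrade and trim RNA, had a median of 0.02. The ribosomal gene Rps12 had a log2 fold of 2.10 ± 2.12, with reads near 0 in most libraries.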
